A study of Mus musculus with 6 samples.

Results

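Footprint densities are described here for genes that encode proline-rich proteins in mouse round spermatids, the haploid germ cells that follow meiosis. The set is a list of gene names, drawn up with earlier results of these data known, and holds 45 genes in 5 classes: formins, the WASP, WAVE and WIP families, Ena/VASP proteins with their partners, proline-rich splicing and polyadenylation factors, and proline-rich chromatin proteins. Of the 45 genes, 35 were matched to a row among the 22770 gene rows of the table, and 32 of these had a mean of at least 1 FPKM and were tested. The members not analysed here are Diaph2, Inf2, Was, Wipf1, Wipf3, Zyx, Raph1, Kmt2d, Arid1b and Bcl9l. The samples are 3 libraries labelled Wild type and 3 labelled Eif5a SKO, all of round spermatids from testis. The series' design text has the cells sorted from 3 mice in each group. What SKO stands for, any promoter or Cre line behind it and the age of the mice were not stated in the labels. Ribosome profiling reads the RNA stretches that ribosomes protect from nuclease, and FPKM gives the footprints of a gene scaled by transcript length and by the fragments mapped in the library.

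EIF5A carries the modified amino acid hypusine and helps ribosomes form peptide bonds at difficult sequences, of which runs of consecutive prolines are the textbook case. Formins, WASP family proteins and Ena/VASP proteins carry proline-rich stretches that recruit profilin-bound actin, and they nucleate or elongate actin filaments or activate the Arp2/3 complex. Several splicing factors carry proline-rich tails that are bound by WW domains. Protein sequences were not used here, so the number and length of proline runs in each member were not measured. Footprint density combines the amount of an mRNA, how often ribosomes load on it and how long they stay. RNA levels were not analysed here, and in bulk samples fewer cells of a type and less RNA per cell cannot be told apart.

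Eif5a itself had 34.2, 48.8 and 61.9 FPKM in the wild-type samples and 1.84, 1.93 and 2.99 FPKM in the SKO samples, so the target gene follows the labels (log2 fold change -3.90, SE 0.37, limma adjusted p = 0.00641). Read steps among low values gave relative depths from 0.503 to 1.00. In a low row with the median step, 1 FPKM corresponds to between 3.22 and 6.41 reads. Members near 1 FPKM may thus rest on few reads per library. The step varies with transcript length and was not computed for any member. All FPKM of a library summed to 495616 in wild-type replicate 1 and to between 687795 and 805560 in the others. The 3 densest rows held from 24.6% of this sum (SKO replicate 2) to 46.4% (wild-type replicate 2). How far this enters single low or high values of members was not tested. All 13 genes of a round spermatid marker list were present. They summed to 812 to 1478 FPKM in wild type, against 1059 to 2194 FPKM in SKO. Markers of Leydig and Sertoli cells had higher sums in every SKO sample, though 0 of the 13 tested passed with the deposited values, against 0.128% of all rows. Groups did not overlap for 5 of 7 tested Leydig markers (71.4%) and 4 of 6 tested Sertoli markers (66.7%), all higher in SKO. Of all rows, 10.9% did not overlap in that direction. Of 9 listed Leydig cell markers, 7 were present and summed to 13.6 to 18.6 FPKM in wild type, against 61.2 to 118 FPKM in SKO. Of 12 Sertoli cell markers, 6 were present and summed to 17.4 to 29.1 FPKM in wild type, against 65.2 to 91.0 FPKM in SKO. With TMM-type scaling, which divides each library by a trimmed mean of ratios to a reference library, the Sertoli marker Clu passed (5.57 ± 2.14 against 27.7 ± 3.69 FPKM, limma adjusted p = 0.0428, or 0.0853 with the deposited values). The stromal and smooth muscle markers Dcn, Acta2, Cnn1 and Myh11 were 8.08, 5.87, 6.71 and 2.86 times as dense in SKO, each without overlap. Of these Dcn passed with the deposited values (1.11 ± 0.289 against 8.96 ± 1.33 FPKM, limma adjusted p = 0.0470), and Acta2 passed with TMM-type scaling alone (adjusted p = 0.0449, or 0.0775 as deposited). In the mixed somatic list that holds Dcn and Acta2, the 4 globin genes of red blood cells, Cd68 and Adgre1 had lower means in SKO. None of the marker genes present was at 0 in every library, and the Sertoli markers Sox9, Wt1, Gata4 and Fshr are not analysed here. The part of these cells in the members' values was not tested.

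No member passed the test between genotypes. In the fit across all rows (limma on log2(FPKM + 1), Benjamini-Hochberg adjusted p under 0.05), 0 of 32 tested members were higher and 0 were lower in SKO, against 0.128% of all 15578 tested rows, 0.109% higher and 0.0193% lower. The members' adjusted p-values ran from 0.378 to 0.992. An unadjusted p under 0.05 was found for 2 members, Wbp11 and Fmnl1, which is 6.25% of those tested against 11.0% of all rows. With TMM-type scaling 0 of 32 members passed against 0.802% of all rows. Of the rows that passed, 17 were higher and 3 lower with the deposited values, and 87 were higher and 38 lower with TMM-type scaling. The median log2 fold change of all rows was 0.13 with the deposited values and -0.03 with TMM-type scaling, so changes are also given relative to that median. The members' median differed from it by 0.0019, with 16 members above and 16 below. These counts do not show that the members were unchanged: the median standard error of a member was 0.41 on the log2 scale, close to the 0.42 of all rows, and most intervals span both a rise and a fall.

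**Figure D1:**
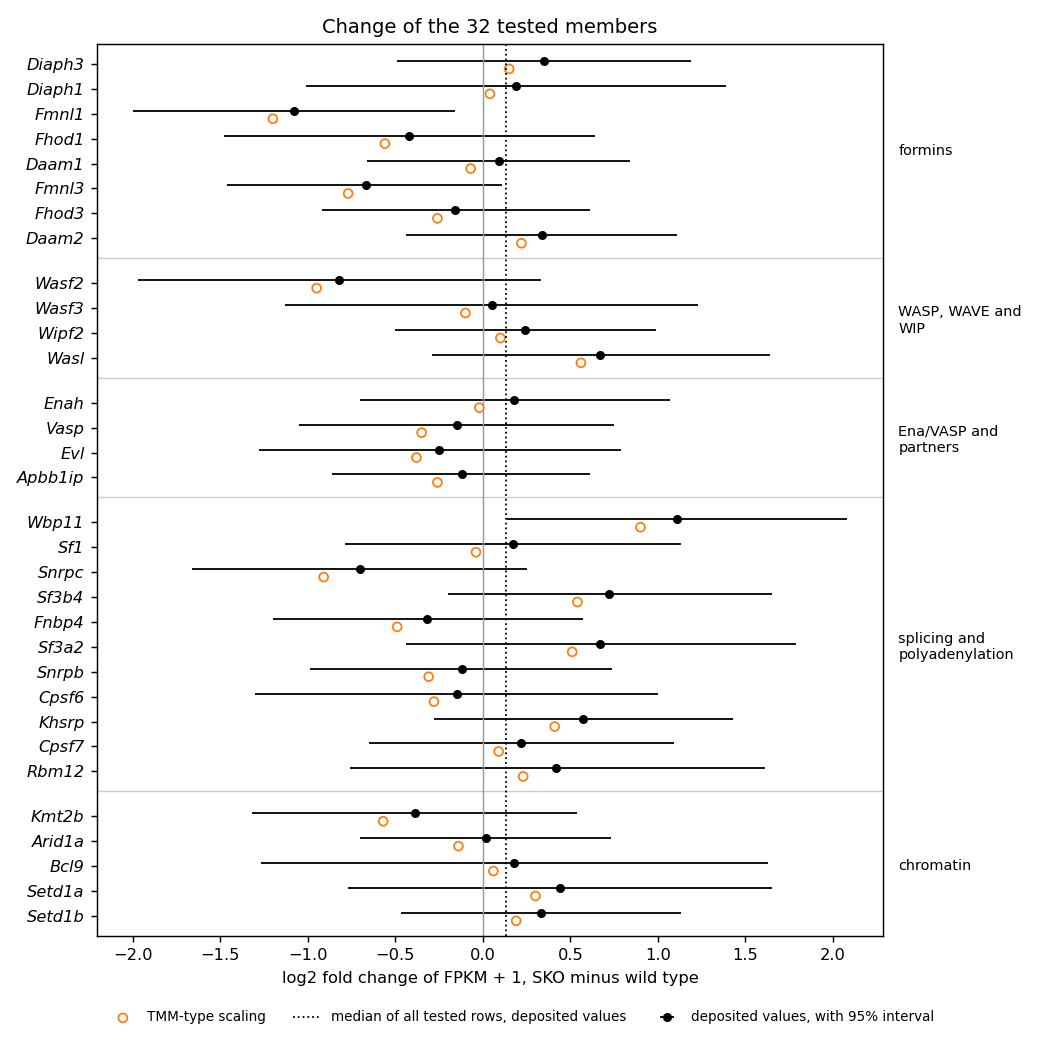
Log2 fold change of FPKM + 1, SKO minus wild type, for the 32 tested members by class. Black points and bars give the deposited values with 95% intervals, open circles the values after TMM-type scaling, and the dotted line the median of all tested rows (0.13); the bars of Wbp11 and Fmnl1 alone leave out 0.

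The members spanned a wide range of densities. FPKM is scaled by transcript length, so levels are set against each other here, though only as approximate ranks. The annotation behind these lengths was not stated, and lengths of coding parts were not used here. In wild type Wbp11, Sf1 and Snrpc were the densest, at 86.4 ± 25.3, 84.5 ± 27.5 and 57.8 ± 21.9 FPKM (SD, n = 3 here and below). Wbp11 and Sf1 were within 1.09-fold of each other in every wild-type sample, while Snrpc was below both in each of them. They lay at percentiles 97.7, 97.6 and 96.1 of protein-coding rows. Enah and Vasp followed at 29.8 ± 7.79 and 23.0 ± 7.59 FPKM, then Diaph3 at 13.3 ± 1.48 and Sf3b4 at 11.3 ± 5.04 FPKM. The other 28 members in the table were under 10 FPKM. At the low end Snrpn, Fmnl2, Wasf1 and Daam2 had wild-type means of 0.289, 0.508, 0.808 and 0.814 FPKM, and the first 3 of these fell under the limit for testing. All 35 members with a row lie on autosomes.

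**Figure D2:**
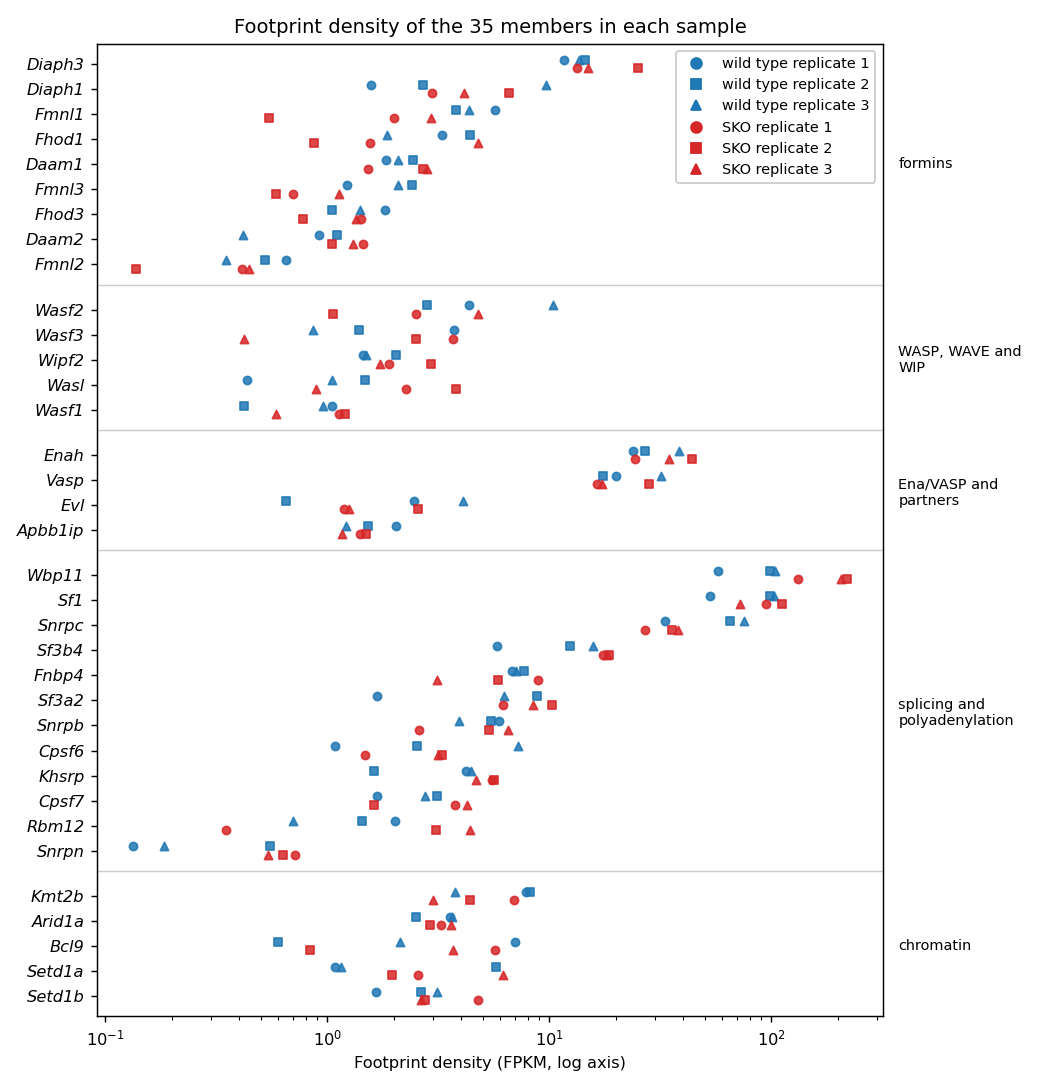
Footprint density in FPKM on a log axis for the 35 members in each of the 6 samples, by class and in order of the wild-type mean. Wbp11, Sf1 and Snrpc are the densest, and the 2 genotypes overlap for most members.

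Formins nucleate and elongate unbranched actin filaments. Their summed density was 28.6 to 35.9 FPKM in wild type, against 25.3 to 38.2 FPKM in SKO. Diaph3 (gene 56419, GRCm38 chromosome 14, 86655357 to 87141247), a diaphanous-related formin, was the densest of the class, with 11.6, 14.5 and 13.6 FPKM in wild type, against 13.3, 25.0 and 15.0 FPKM in SKO. SKO replicate 2 was high and the groups overlapped (log2 fold change 0.35, SE 0.37, limma adjusted p = 0.779). Diaph3 held 40.9 ± 3.03% of the formin sum in wild type and 54.1 ± 10.6% in SKO. Its relative Diaph1 ran from 1.58 to 9.70 FPKM in wild type and between 2.95 and 6.55 FPKM in SKO, a 6.14-fold range among wild-type samples alone, and its direction relative to all rows turned in some settings.

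The formins whose groups did not overlap, Fmnl1 and Fmnl3, both belong to the formin-like group and had lower values in SKO. They are 2 of 8 tested formins (25.0%), while groups did not overlap for 15.7% of all rows, 4.78% being lower in SKO. Fmnl1 (gene 57778, GRCm38 chromosome 11, 103171004 to 103198902), known best from blood cells, had 5.68, 3.80 and 4.35 FPKM in wild type, against 1.99, 0.548 and 2.94 FPKM in SKO. Every SKO value lay below every wild-type value, and SKO replicate 2 was lowest. The mean in SKO was 39.6% of that in wild type (log2 fold change -1.08, SE 0.41, limma unadjusted p = 0.0264, adjusted p = 0.378). Fmnl3 had 1.23, 2.41 and 2.07 FPKM in wild type, against 0.699, 0.586 and 1.13 FPKM in SKO, again without overlap (log2 fold change -0.67, SE 0.35, limma adjusted p = 0.523). Fmnl2 had 0.508 ± 0.152 and 0.331 ± 0.168 FPKM, was too low to be tested and overlapped.

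Globin genes, markers of red blood cells, also had lower values in SKO. The 4 globin genes of a somatic list (15 markers of peritubular, endothelial, macrophage and blood cells, 10 of them present) summed to 50.4 to 110 FPKM in wild type, against 15.2 to 42.0 FPKM in SKO. The whole list summed to 57.2 to 118 FPKM and 49.1 to 70.7 FPKM, a sum of globins with lower values in SKO and of Dcn, Acta2, Cnn1 and Myh11 with higher ones. The globin gene Hbb-bs had 17.1, 35.7 and 29.8 FPKM in wild type, against 5.86, 6.19 and 16.1 FPKM in SKO. Among wild-type samples Hbb-bs was lowest in replicate 1, where Fmnl1 was highest, and among SKO samples both were highest in replicate 3. The ratio of Fmnl1 to Hbb-bs was 0.106 to 0.333 in wild type and 0.0886 to 0.339 in SKO. The groups overlapped for this ratio. How often ratios of other rows to Fmnl1 or Hbb-bs overlap was not computed. The macrophage marker Cd68 was at 0.559, 1.74 and 3.96 FPKM in wild type, against 0, 1.75 and 1.14 FPKM in SKO, and the macrophage marker Adgre1 had 0.0787, 1.33 and 2.03 FPKM and 0.837, 1.73 and 0.241 FPKM and also overlapped, while the leukocyte markers Ptprc and Csf1r are not analysed here. The part of blood cells in the Fmnl1 values was not tested.

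The remaining formins overlapped between genotypes. Fhod1 had 3.17 ± 1.27 FPKM in wild type, against 2.40 ± 2.08 FPKM in SKO. Its annotated span overlaps that of Tmem208 by 6326 bases. Tmem208 was denser than Fhod1, with group means of 6.17 (wild type) and 5.7 FPKM (SKO). Fhod3, a formin of muscle sarcomeres, had 1.42 ± 0.381 and 1.18 ± 0.350 FPKM. Its span overlaps that of Tpgs2 by 6285 bases, and Tpgs2 had group means of 1.12 and 1.17 FPKM. How far reads of these neighbours enter the values of Fhod1 and Fhod3 was not tested. Daam1 and Daam2, formins linked to Wnt signalling, had 2.11 ± 0.296 and 0.814 ± 0.357 FPKM in wild type, against 2.35 ± 0.710 and 1.27 ± 0.203 FPKM in SKO. As a class, the 8 tested formins had a median 0.16 below that of all rows (-0.16), with 3 above and 5 below it. Over the other settings this difference ran from -0.47 to 0.14. It was positive only at a mean of at least 5 FPKM, where 1 formin, Diaph3, was left. The other formin genes Fmn1 and Fmn2, outside the set, had differences of opposite sign. Fmn1 had 14.7, 8.68 and 17.3 FPKM in wild type, against 2.99, 5.46 and 8.92 FPKM in SKO. The groups overlapped by a narrow margin. Fmn2, an actin nucleator of the oocyte, had 0.575, 1.91 and 2.07 FPKM against 3.35, 3.18 and 4.01 FPKM, without overlap. Neither passed (limma adjusted p = 0.382 and 0.418).

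WASP and WAVE proteins switch on the Arp2/3 complex, which builds branched actin, and WIP proteins bind and stabilise WASP proteins. Wasf2, which encodes WAVE2, was the densest of the class with 4.34, 2.81 and 10.4 FPKM in wild type, against 2.52, 1.06 and 4.77 FPKM in SKO. Wild-type replicate 3 was high, the groups overlapped, and the mean in SKO was 47.7% of that in wild type (log2 fold change -0.82, SE 0.51, limma adjusted p = 0.602). Wasl, the N-WASP gene, had 0.434, 1.48 and 1.05 FPKM in wild type, against 2.27, 3.80 and 0.892 FPKM in SKO. Here SKO replicates 1 and 2 were above all wild-type samples and replicate 3 was not (log2 fold change 0.67, SE 0.43, limma adjusted p = 0.610).

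Wasf3 varied most within this class, with 3.73, 1.39 and 0.865 FPKM in wild type, against 3.68, 2.50 and 0.423 FPKM in SKO, an 8.71-fold range among SKO samples. Wipf2, a WIP family gene, had 1.66 ± 0.321 and 2.18 ± 0.648 FPKM. Wasf1 had 0.808 ± 0.339 and 0.970 ± 0.335 FPKM and was not tested. The 4 tested genes had a median 0.02 above that of all rows, from -0.23 to 0.32 over the other settings.

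The partners of these activators gave no call. Of 9 tested Arp2/3 subunit genes and 6 tested partners of the WAVE complex, 0 passed in either direction. The lowest p among them belonged to Nckap1, a scaffold subunit of the WAVE complex, with 3.76, 4.42 and 8.50 FPKM in wild type, against 0.530, 1.63 and 1.58 FPKM in SKO. The groups did not overlap and the mean in SKO was 22.4% of that in wild type (log2 fold change -1.52, SE 0.40, limma adjusted p = 0.219, or 0.0660 with TMM-type scaling). The WAVE subunit gene Abi1 had 1.72 ± 0.387 and 2.59 ± 0.722 FPKM. The Arp2/3 subunit genes Arpc4 and Actr2 had 4.25 ± 1.55 and 1.49 ± 0.551 FPKM in wild type, against 10.0 ± 4.41 and 2.80 ± 1.58 FPKM in SKO. Groups did not overlap for 1 of 9 Arp2/3 genes, Arpc4, which was higher in SKO. The same held for 1 of 6 WAVE partners, Nckap1, which was lower, against 15.7% of all rows.

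Ena/VASP proteins extend actin filaments at their growing ends. Enah (gene 13800, GRCm38 chromosome 1, 181896384 to 182027556), which encodes Mena, had 23.7, 27.0 and 38.5 FPKM in wild type, against 24.3, 43.7 and 34.5 FPKM in SKO. Vasp had 19.9, 17.5 and 31.7 FPKM in wild type, against 16.4, 28.2 and 17.3 FPKM in SKO. For both genes the genotypes overlapped over most of their range (log2 fold changes 0.18 and -0.15, SE 0.40 for each, limma adjusted p = 0.909 and 0.930). Together they held 52.7% and 40.3% of the class sum in wild type and 59.1% and 35.6% in SKO. The within-sample ratio of Enah to Vasp was 1.19, 1.54 and 1.22 in wild type, against 1.49, 1.55 and 2.00 in SKO, and overlapped.

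The third member of the family, Evl, was far lower, at 2.46, 0.653 and 4.09 FPKM in wild type, against 1.19, 2.55 and 1.25 FPKM in SKO. Wild-type samples differed 6.26-fold among themselves. The annotated span of Evl overlaps that of Degs2, on the opposite strand, by 1725 bases. Apbb1ip, whose product RIAM links the GTPase Rap1 to integrins and binds Ena/VASP proteins, had 1.58 ± 0.414 and 1.36 ± 0.173 FPKM. The median of these 4 genes was -0.26 relative to all rows, and none had groups apart.

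The splicing factors held the 3 densest members of the set and 3 of the 5 members whose groups did not overlap. Those 5 are 15.6% of the tested members, against 15.7% of all rows. Wbp11 (gene 60321, GRCm38 chromosome 6, 136813654 to 136828216) encodes a proline-rich spliceosomal protein that binds WW domains. It had 57.4, 98.2 and 104 FPKM in wild type, against 132, 219 and 206 FPKM in SKO. Every SKO sample lay above every wild-type sample and the mean in SKO was 2.15 times that in wild type (log2 fold change 1.11, SE 0.43, 95% interval 0.14 to 2.08, limma unadjusted p = 0.0291, adjusted p = 0.393). Relative to all rows the change was 0.98, and 0.93 with TMM-type scaling (adjusted p = 0.119). Of 25 other settings, Wbp11 passed in 1, equal sums over protein-coding rows (limma adjusted p = 0.0395, range over the 25 settings 0.0395 to 0.711), where 3.32% of all rows passed.

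The annotated span of Wbp11 overlaps that of BC049715, on the opposite strand, by 57 bases (136828160 to 136828216), and this neighbour was examined only because of the overlap. BC049715 had 3.83, 3.84 and 4.24 FPKM in wild type, against 7.35, 10.2 and 6.78 FPKM in SKO, also without overlap (log2 fold change 0.86, limma adjusted p = 0.382). Whether reads were counted by strand was not stated. BC049715 was far less dense than Wbp11, and how far reads of either gene enter the values of the other was not tested.

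Snrpc (gene 20630, GRCm38 chromosome 17, 27840028 to 27851968), which encodes the U1 snRNP protein that helps recognise the start of introns, stood the other way. It had 33.2, 65.1 and 75.2 FPKM in wild type, against 27.1, 35.7 and 37.8 FPKM in SKO, with wild-type replicate 1 inside the SKO range. It was singled out after its values were seen (log2 fold change -0.70, SE 0.43, limma adjusted p = 0.586; -0.91 with TMM-type scaling, adjusted p = 0.149). Sf1 (gene 22668, GRCm38 chromosome 19, 6363673 to 6378038), the branch point binding protein gene, had 52.9, 98.1 and 103 FPKM in wild type, against 94.4, 112 and 71.9 FPKM in SKO. Its groups overlapped (log2 fold change 0.17, SE 0.43, limma adjusted p = 0.926).

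**Figure D3:**
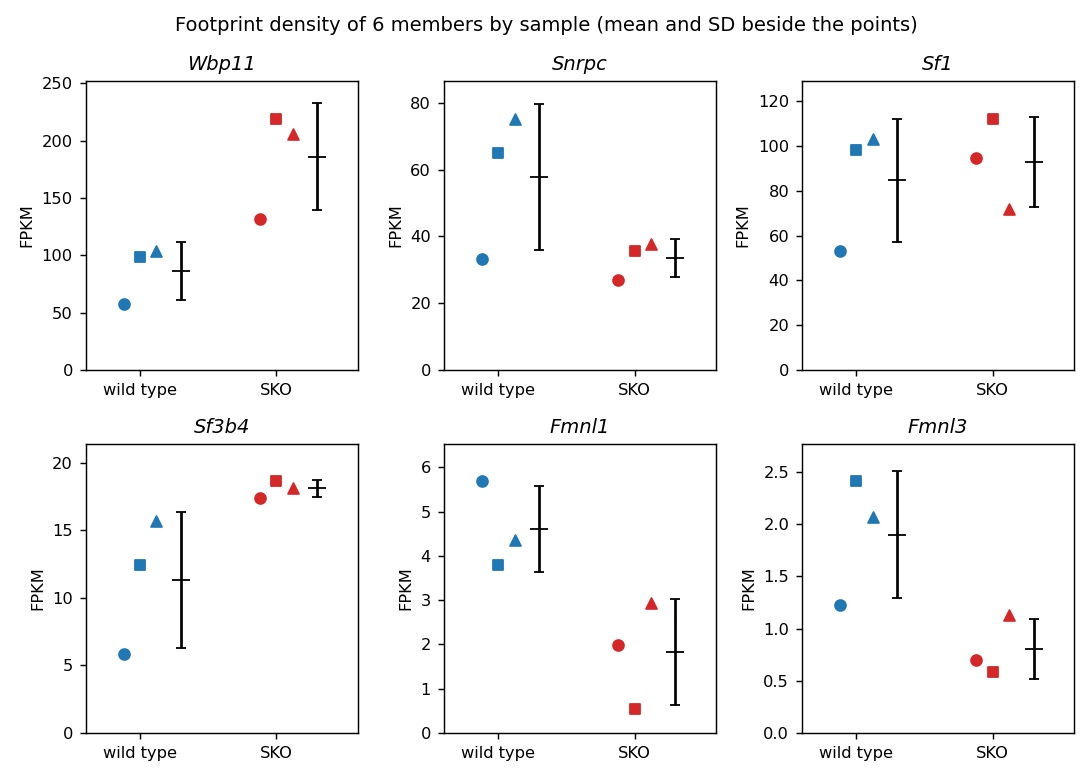
Footprint density in FPKM for Wbp11, Snrpc, Sf1, Sf3b4, Fmnl1 and Fmnl3 in the 3 wild-type (blue) and 3 SKO (red) samples, circles, squares and triangles being replicates 1, 2 and 3; bars beside the points give the mean and SD. Wbp11 and Sf3b4 are higher and Fmnl1 and Fmnl3 lower in every SKO sample, while Snrpc and Sf1 overlap.

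Ratios within a sample do not depend on how libraries are scaled to each other, and those between Wbp11, Snrpc and Sf1 differed by genotype. The ratio of Wbp11 to Snrpc was 1.73, 1.51 and 1.38 in wild type, against 4.89, 6.15 and 5.44 in SKO. Wbp11 and Sf1 were at nearly equal density in wild type, with ratios of 1.09, 1.00 and 1.01, against 1.40, 1.96 and 2.86 in SKO. The ratio of Snrpc to Sf1 was 0.628, 0.663 and 0.734 in wild type, against 0.287, 0.318 and 0.526 in SKO. None of the 3 ratios overlapped between genotypes. They were chosen after the values were seen and are a description: ratios did not overlap for 10 of 55 pairs of tested splicing and polyadenylation members (18.2%) and 66 of 496 pairs of all tested members (13.3%). Set against Wbp11, 45.7% of 14271 rows above 0 in every library had ratios that did not overlap, against 39.3% for Snrpc and 15.3% for Sf1. Wbp11 held 32.3 ± 0.890% of the class sum in wild type and 50.6 ± 6.01% in SKO, and Snrpc held 21.1 ± 1.81% and 9.24 ± 0.923%.

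**Figure D4:**
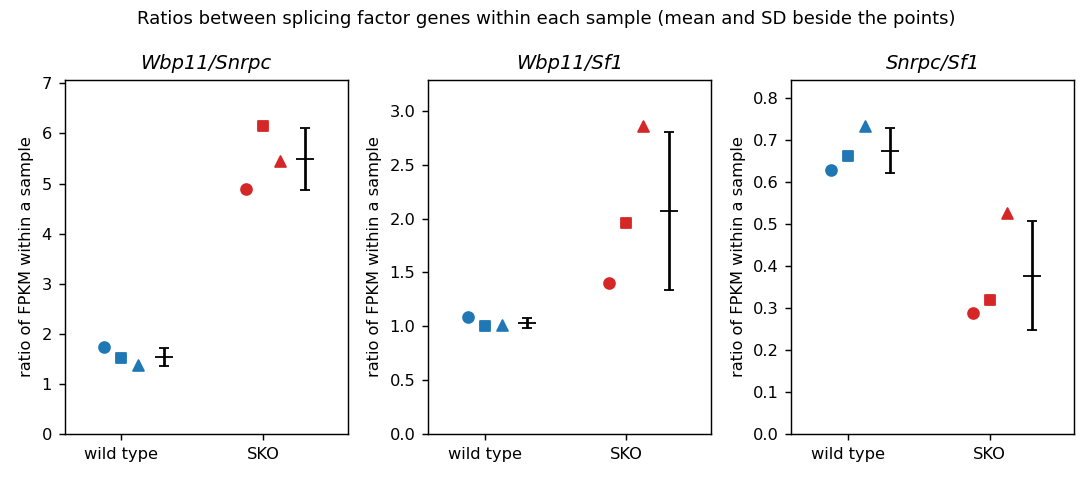
Ratios of FPKM between Wbp11, Snrpc and Sf1 within each sample, wild type in blue and SKO in red, with the mean and SD beside the points. The ratio of Wbp11 to Snrpc lies between 1.38 and 1.73 in wild type and between 4.89 and 6.15 in SKO.

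Sf3b4 and Sf3a2, genes of the U2 snRNP that binds the branch point, had higher means in SKO without a call. Sf3b4 had 5.82, 12.4 and 15.7 FPKM in wild type, against 17.4, 18.6 and 18.1 FPKM in SKO. The groups did not overlap, wild-type replicate 1 was low, and the SKO samples lay within 1.07-fold of each other (log2 fold change 0.72, SE 0.41, limma adjusted p = 0.561). Sf3a2 had 5.57 ± 3.60 and 8.33 ± 2.08 FPKM and overlapped. Snrpb, which encodes the Sm core protein B, had 5.10 ± 1.07 and 4.81 ± 2.01 FPKM. Its imprinted, brain-enriched relative Snrpn had 0.289 ± 0.228 and 0.629 ± 0.0866 FPKM and was not tested. Snrpb and Snrpn are near-identical paralogues, and Snrpn shares its locus with Snurf, so their values are uncertain where reads were split.

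The other RNA-binding members were lower and mixed. Khsrp, a KH domain protein gene of splicing and mRNA decay that was singled out after its values were seen, had 4.20, 1.62 and 4.45 FPKM in wild type, against 5.52, 5.65 and 4.65 FPKM in SKO. Its groups were apart by a narrow margin (log2 fold change 0.57, SE 0.38, limma adjusted p = 0.622). Fnbp4, a WW domain protein gene, had 7.15 ± 0.457 and 5.96 ± 2.89 FPKM and overlapped. Cpsf6 and Cpsf7, alternative subunits of the cleavage factor that selects polyadenylation sites, had 3.61 ± 3.21 and 2.52 ± 0.747 FPKM in wild type, against 2.64 ± 1.01 and 3.21 ± 1.38 FPKM in SKO. The annotated span of Cpsf7 overlaps that of Tmem216, on the opposite strand, by 8410 bases. Tmem216 had group means of 2.85 (wild type) and 3.54 FPKM (SKO), and its part in the Cpsf7 values was not tested. Rbm12 had 1.38 ± 0.660 and 2.61 ± 2.07 FPKM, and its locus overlaps that of Cpne1 on the same strand.

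The 11 tested splicing and polyadenylation members had a median 0.09 above that of all rows (-0.10 without SKO replicate 3), with 7 above and 4 below it. Groups did not overlap for 3 of them, all higher in SKO, against 10.9% of all rows in that direction and 4.78% in the other. Over all 32 tested members 5 did not overlap (15.6%), 3 higher and 2 lower, against 15.7% of all rows, so the share was that of the table at large. None of the 19 tested U1 and U2 snRNP partner genes passed, and the smallest p among them belonged to the Sm core genes Snrpf and Snrpd2. Snrpf had 10.4, 12.4 and 20.9 FPKM in wild type, against 15.5, 39.4 and 24.9 FPKM in SKO, and overlapped. Snrpd2 had 6.36 ± 3.02 FPKM, against 12.2 ± 5.59 FPKM in SKO. None of the 13 tested cleavage and polyadenylation partners passed, with a median 0.32 above that of all rows. The smallest p among these belonged to Cstf2, a cleavage stimulation factor subunit gene, with 8.56 ± 4.84 FPKM in wild type, against 17.6 ± 3.93 FPKM in SKO and no overlap. Nudt21, the partner of Cpsf6 and Cpsf7, had 11.4, 18.4 and 21.1 FPKM in wild type, against 19.6, 42.2 and 37.3 FPKM in SKO, and overlapped (limma adjusted p = 0.439 and 0.486).

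**Figure D5:**
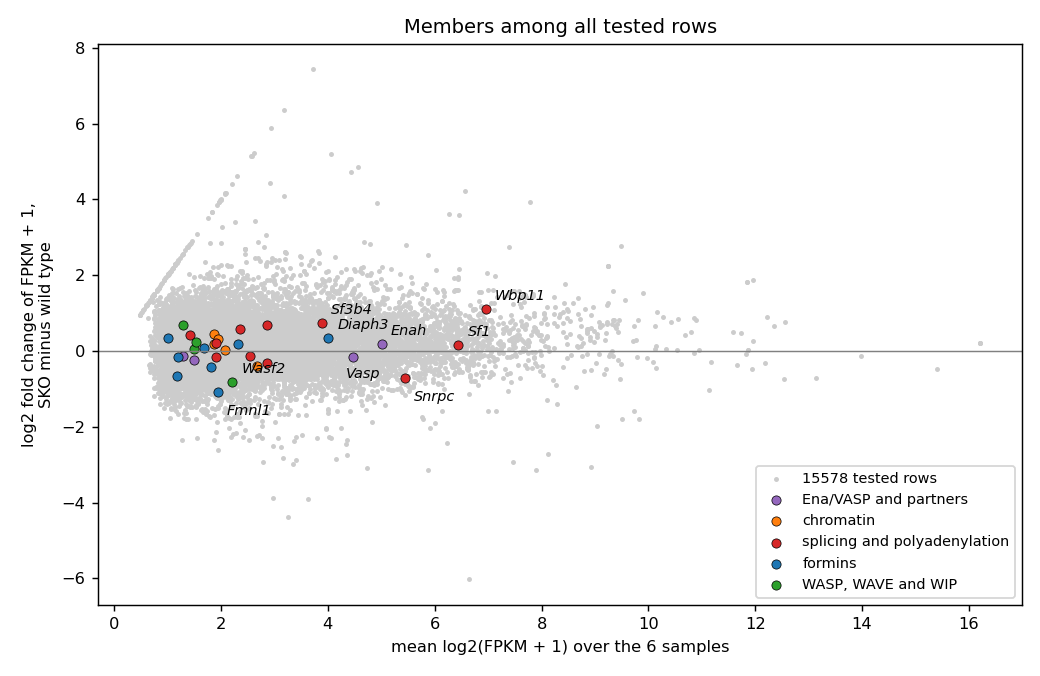
Log2 fold change of FPKM + 1, SKO minus wild type, against the mean log2(FPKM + 1) over the 6 samples for 15578 tested rows (grey) and the 32 tested members, coloured by class. Members lie within the spread of rows of similar density, between -1.08 for Fmnl1 and 1.11 for Wbp11.

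For every chromatin member the genotypes overlapped. Kmt2b, a histone methyltransferase of the COMPASS family, was the densest, with 7.85, 8.15 and 3.75 FPKM in wild type, against 6.96, 4.39 and 2.99 FPKM in SKO (log2 fold change -0.39, SE 0.41, limma adjusted p = 0.777). Wild-type replicate 3 lay inside the SKO range. Setd1b, of the same enzyme family, had 1.66, 2.65 and 3.12 FPKM in wild type, against 4.79, 2.75 and 2.63 FPKM in SKO, with SKO replicate 1 high (log2 fold change 0.33, SE 0.36, limma adjusted p = 0.785). Its paralogue Setd1a had 2.67 ± 2.69 and 3.57 ± 2.28 FPKM, with single high samples in each group.

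Arid1a, a subunit gene of the BAF remodelling complex, was the steadiest chromatin member at 3.23 ± 0.631 and 3.26 ± 0.338 FPKM (log2 fold change 0.02, SE 0.32, 95% interval -0.70 to 0.73). Bcl9, a coactivator of beta-catenin, was the least steady, with 6.98, 0.597 and 2.12 FPKM in wild type, against 5.68, 0.834 and 3.69 FPKM in SKO, an 11.7-fold range among wild-type samples. Its standard error of 0.64 was the largest of any member. The 5 tested genes had a median 0.05 above that of all rows, from -0.60 to 0.40 over the other settings, and none had groups apart.

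Partner complexes of the chromatin members gave no call among 11 tested COMPASS, 14 tested BAF and 4 tested beta-catenin partner genes. COMPASS partners had a median 0.30 above that of all rows, with 9 of 11 above it. BAF partners had one of -0.09, with 9 of 14 below that of all rows. By smallest p, the COMPASS partners were Paxip1, at 2.88 ± 0.491 and 6.62 ± 4.11 FPKM, and Kmt2c, at 1.35 ± 0.821 and 2.66 ± 1.40 FPKM. The BAF partners were Bcl7c, at 5.05 ± 1.22 and 9.61 ± 2.75 FPKM, and Smarcd1, at 2.14 ± 0.317 and 3.84 ± 1.65 FPKM. The beta-catenin partners were Pygo2, at 7.21 ± 3.93 and 5.48 ± 4.43 FPKM, and Tcf7l2, at 2.45 ± 1.22 and 1.71 ± 0.102 FPKM. Over all partner lists 0 of 83 tested genes passed and 50 lay above the median of all rows. Groups did not overlap for 9 of the 83 (10.8%), 8 higher and 1 lower in SKO, against 15.7% of all rows. Paxip1, Bcl7c and Smarcd1 were among those higher.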

How the data were processed

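The authors deposited a single table of FPKM values, 1 per gene symbol and library, without counts. Per the submitters' processing notes the tools were cutadapt, Bowtie2, STAR and Cufflinks, and the genome build was mm10, with no role or order given. The sources used here do not state the annotation, the strand setting or how multi-mapping reads were treated. Columns headed cKO were matched to the SKO samples by genotype and replicate number. Positions come from a RefSeq table of GRCm38, which matched 19305 rows by symbol.

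Values entered the test as log2(FPKM + 1), for rows averaging 1 FPKM or more. The two-sided test was limma 3.58.1 (R 4.3.3; lmFit, then eBayes with its trend option), adjusted by Benjamini-Hochberg over 15578 rows. Fold changes on this scale understate those of low genes. The fit was run on simulated data with the same spread for every row and changes larger than any member's. That run does not bear on effects of the members' size. Total depth is unknown: of 2629 low rows, 13.6% stepped in whole reads within 2%, too few to recover counts. The labels do not tie libraries to mice, so p-values measure only the spread between these samples, which may be technical.

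Members and lists were chosen with earlier results of these data known. The rule for named genes gave sample values for members past the threshold and, in each class, for the pair with the smallest p and the pair with the highest mean. Snrpc and Khsrp were given by sample after their values were seen. The other members are given by mean and SD, and partner lists by their genes of smallest p. TMM-type scaling left out, at either extreme, 0.3 of the ratios and 0.05 of the levels. Other settings varied the pseudocount, filter, scaling, variance model, pairing and libraries used. A comparison by proline runs was planned and was not run, since protein sequences were not used here. One list of partner genes is not reported here.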

Additional observations from a re-analysis of the deposited data

How the results depend on the processing

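The count of members past the test was 0 in 24 of 25 other settings and 1 (Wbp11) with equal sums over protein-coding rows. Rows passing over the whole table numbered 20 as reported, 4 with a pseudocount of 5, 5 with no filter, 86 with a mean of at least 5 FPKM, 125 with TMM-type scaling, 446 with quantile normalization (248 higher and 198 lower in SKO), 517 with equal coding sums (315 higher and 202 lower) and 63 with robust eBayes. Leaving out 1 library gave 4 to 31 rows. Added after the data were seen, TMM-type factors over all rows above 0 gave 53, protein-coding rows alone 56, equal rows counted once 9, and TMM-type scaling without 1 library 4 to 25, with 8 without WT replicate 2, and 12 and 13 without SKO replicates 1 and 3. Deviations of same-numbered samples had weak correlations of 0.09, 0.0002 and 0.02. These do not settle whether the numbers pair the samples, since a correlation leaves out a shift shared by all rows. The fit with the replicate block called 5 rows and 0 members.

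The chromatin median was -0.60 at a mean of at least 5 FPKM, where 1 gene was left and the WASP class had none. With 1 library left out the splicing median ran from -0.10 to 0.19. Of the 18 members given by sample, 12 kept their direction relative to all rows in every setting that gave a value, and 6 did not. Diaph1 was -0.01 and Bcl9 -0.0026 with a pseudocount of 5. With the stricter filter, quantile normalization and equal coding sums, Enah was -0.03, -0.05 and -0.0001 and Sf1 -0.04, -0.13 and -0.02. Sf1 was -0.01 and -0.0039 with TMM-type factors over tested and over all rows. With 1 library left out Diaph1 ran from -0.29 to 0.58, Wasf3 from -0.54 to 0.42, Enah from -0.05 to 0.17, Sf1 from -0.19 to 0.21, Bcl9 from -0.50 to 0.74 and Setd1b from -0.12 to 0.39. With TMM-type scaling as well, values that turned were -0.29, -0.08 and -0.08 for Diaph1, 0.40 and 0.42 for Wasf3, -0.03, -0.04, -0.06 and -0.01 for Enah, -0.21, -0.17 and -0.03 for Sf1, -0.48, -0.06, -0.40 and -0.03 for Bcl9 and -0.10 for Setd1b; the cause was not tested. The alternatives for proline runs were not run. Depth may limit members near 1 FPKM, for which reads were not recovered.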
